A study of Mus musculus with 11 samples.

Results

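The S100 proteins measured in mouse liver were examined as a gene family. The 9 members were *S100a1*, *S100a4*, *S100a6*, *S100a8*, *S100a9*, *S100a10*, *S100a11*, *S100a13* and *S100a16*, chosen by gene symbol, and 7 of them were found among the 13669 genes of the count table. *S100a4* and *S100a8* had no entry in it and were not analysed here, and the same held for all 8 other S100 genes that were looked up. The libraries came from the livers of C57BL/6J wild-type male mice on regular chow, 5 with AAV-NC and 6 with AAV-TuD. Both groups received a recombinant adeno-associated virus of serotype 8 in which the liver-specific LP1 promoter, active in hepatocytes, drove the insert, so that the control mice carried the vector too. In AAV-TuD mice the insert was a tough decoy RNA that binds *miR-379* and *miR-541*, and in AAV-NC mice it was a negative control sequence. The labels give neither the age of each mouse nor the time between injection and killing. The study counts the libraries as animals, which the sample labels themselves do not state.

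S100 proteins are small calcium-binding proteins that carry a pair of EF-hand motifs and mostly act as dimers. On binding calcium they expose a surface that holds partner proteins, such as annexins, the cytoskeleton or enzymes, and some members also leave the cell and act on receptors such as RAGE and TLR4. In the liver, *S100a1* and *S100a13* are found in parenchymal tissue, *S100a6*, *S100a10* and *S100a11* are typical of bile duct epithelium, fibroblasts and injured tissue, and *S100a8* and *S100a9* form calprotectin, a product of neutrophils and monocytes.

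Both miRNAs bound by the decoy are shown because their seeds, bases 2 to 8 in capitals, were searched for in the 3′ UTRs of the members. RefSeq places both on the plus strand of chromosome 12 in GRCm38.p6, *miR-379-5p* at chr12:109709065-109709085 and *miR-541-5p* at chr12:109742422-109742446, and neither miRNA itself was measured in these libraries.
mmu-miR-379-5p: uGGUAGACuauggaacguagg
mmu-miR-541-5p: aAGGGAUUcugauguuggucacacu

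The DNA letters GTCTACC, which pair with the *miR-379-5p* seed, occurred in the longest annotated 3′ UTR of 626 of 10935 tested genes, or 5.72%, and in none of the 7 members. The letters AATCCCT, which pair with the *miR-541-5p* seed, occurred in 1040 of these genes, or 9.51%, and once among the members. That match lay in the 3′ UTR of *S100a16*, starting at base 184 of 565, on the plus strand at chr3:90542760-90542786 of GRCm38, with the match in capitals.
S100a16: ctgagcattcAATCCCTggatcctgta

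A match of letters is a description and not a site of action. *S100a16* was among the members whose level did not pass the test (below 13.2 CPM in every liver), and *S100a6* and *S100a11*, which passed it, held neither seed match in 3′ UTRs of 506 and 140 bases. The study reports that the decoy also lowered the host transcripts of these miRNAs and other miRNAs made from them. Seeds of those other miRNAs, and matches outside the 3′ UTR, were not searched for, so targeting of the members was not tested.

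The libraries held 8148531 to 11971245 reads in AAV-NC livers and 8923726 to 12043959 in AAV-TuD livers. Levels are given as CPM, the reads of a gene scaled to a common library total. The TMM factors ran from 0.667 to 1.03 in AAV-NC and from 0.884 to 1.24 in AAV-TuD livers. The libraries were made by QuantSeq, which reads the 3′ end of each transcript about once, so that CPM values of different genes were compared without division by length. Of 13334 genes tested with the edgeR quasi-likelihood test at a Benjamini-Hochberg adjusted p value under 0.05, 966 were higher in AAV-TuD (7.24%), 577 were lower (4.33%) and 11.6% were called in either direction. In 548 genes (4.11%) each AAV-TuD liver lay above each AAV-NC liver. The median log2 fold change of all tested genes was −0.0024.

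Among the 7 members, *S100a11* and *S100a6* rose in AAV-TuD livers, none fell and 5 did not pass the test. The share called higher was 28.6%, beside the 7.24% of all tested genes, and the same 2 of 7 members had no overlap between the groups, beside 4.11%. These shares rest on 2 genes of a family chosen with earlier results of these data known, and their difference was not tested. The median log2 fold change of the members was 0.32. In bulk liver RNA, more cells of a type and more RNA per cell cannot be told apart.

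**Figure D1:**
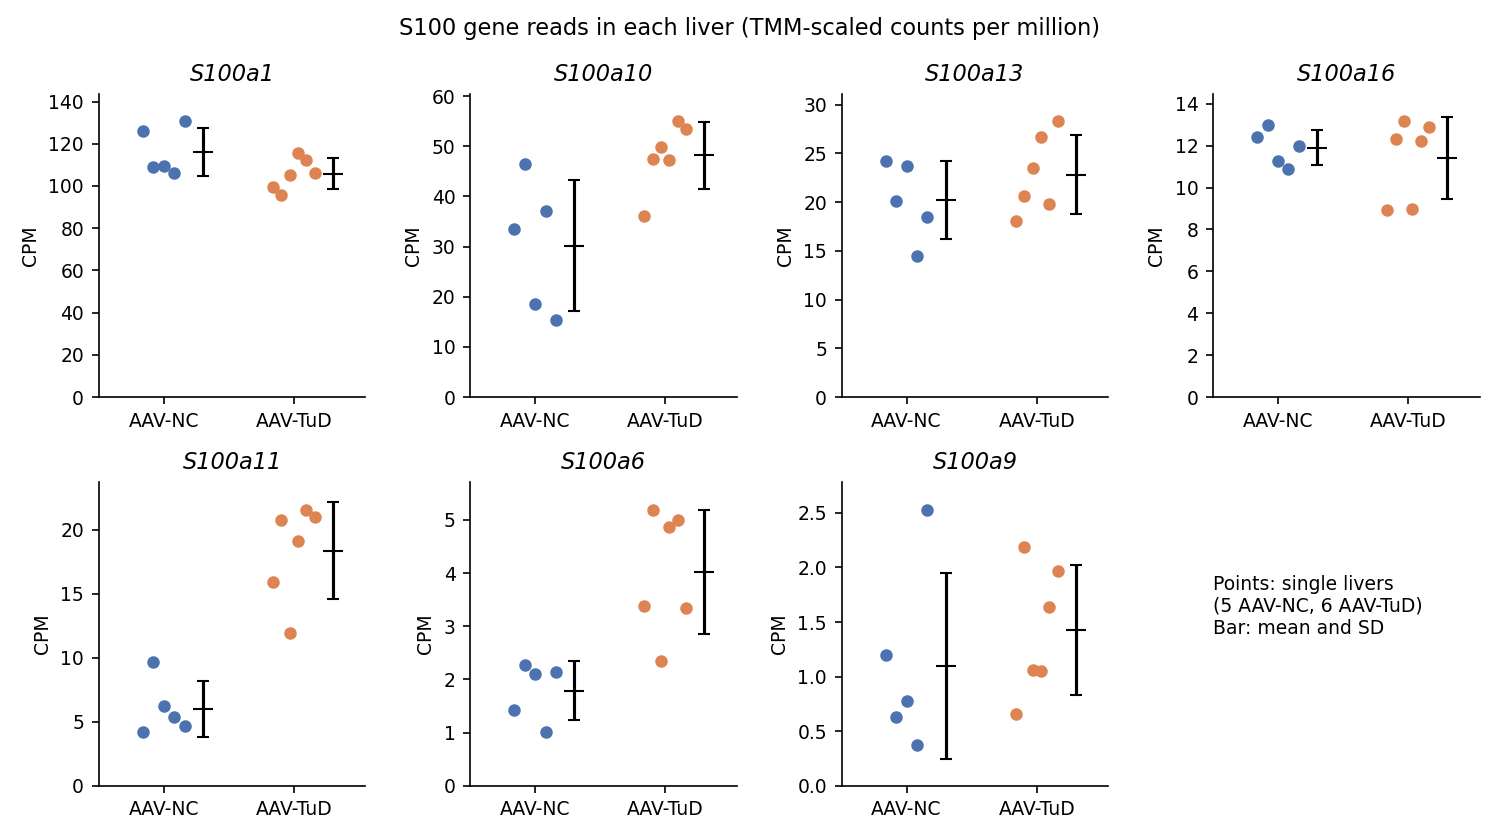
Level of each of the 7 measured S100 genes in CPM (TMM-scaled, linear axis from 0, 1 panel per gene), with 1 point per liver, 5 AAV-NC and 6 AAV-TuD, and the bar and whiskers at the mean ± SD. The groups do not overlap in *S100a11* and *S100a6* and overlap in the other 5 genes.

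*S100a11* (ENSMUSG00000027907, plus strand of chr3:93520488-93526287, GRCm38), which binds annexin A1 and is expressed in epithelial and mesenchymal cells, showed the most pronounced change of the family. In AAV-NC livers 1, 2, 6, 7 and 8 its level was 4.18, 9.69, 6.20, 5.38 and 4.67 CPM, and in AAV-TuD livers it ran from 11.9 to 21.6 CPM with a median of 19.9. Liver 2 was the highest control and still lay under the lowest AAV-TuD liver. The means were 6.02 ± 2.19 CPM (SD, n = 5) and 18.4 ± 3.78 CPM (SD, n = 6), a fitted rise of 3.07-fold. On the log2 scale the difference was 1.62 with a standard error of 0.20 and a 95% confidence interval of 1.19 to 2.05 (edgeR, adjusted p = 2.52e-04). It passed the threshold in each of 19 alternative analyses. Of similar sequences, 5 processed pseudogenes had 90.6 to 99.0% identity with parts of the *S100a11* transcript. None of the 5 was in the count table, their matches ended at base 371 of 511 or before, but all 5 reached into the last 200 bases, the end from which QuantSeq reads, and how the authors counted reads that match several genes is not given in the sources used here.

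*S100a6* (ENSMUSG00000001025, plus strand of chr3:90612882-90624181), or calcyclin, which is expressed in proliferating and mesenchymal cells, was a low-abundance transcript. The AAV-NC livers held 1.43, 2.27, 2.10, 1.0 and 2.14 CPM, from only 8 to 22 reads each, and the AAV-TuD livers 2.34 to 5.19 CPM with a median of 4.12, from 22 to 60 reads. The lowest AAV-TuD liver and the highest control were close, but no value crossed. The mean went from 1.79 ± 0.55 CPM (SD, n = 5) to 4.02 ± 1.16 CPM (SD, n = 6), a fitted 2.23-fold rise. The log2 fold change was 1.16 with a standard error of 0.26 and an interval of 0.61 to 1.70 (edgeR, adjusted p = 0.00947). This call was kept in each of 19 alternative analyses as well, with an adjusted p of at most 0.0272.

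The promoters of these called members are shown as the RefSeq sequence of GRCm38.p6 from 250 bases before to 50 bases after the transcript start. The *S100a11* window lies at chr3:93520246-93520545 and the *S100a6* window at chr3:90612644-90612943, both on the plus strand. Capitals mark matches on either strand to the letters searched for, which were TGANTCA for the AP-1 factor, the letters GGGCGG for the GC box, and CCAAT for the box of that name. The letters TATAAA, known as the TATA box, and the TEAD motif with the letters GGAATG were searched for too.
S100a11: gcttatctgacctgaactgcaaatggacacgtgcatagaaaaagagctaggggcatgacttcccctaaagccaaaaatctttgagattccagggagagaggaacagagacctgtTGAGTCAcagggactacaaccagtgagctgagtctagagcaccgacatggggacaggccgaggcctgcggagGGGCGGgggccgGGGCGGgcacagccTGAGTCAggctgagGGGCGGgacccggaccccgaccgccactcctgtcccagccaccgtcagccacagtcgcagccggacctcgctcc
S100a6: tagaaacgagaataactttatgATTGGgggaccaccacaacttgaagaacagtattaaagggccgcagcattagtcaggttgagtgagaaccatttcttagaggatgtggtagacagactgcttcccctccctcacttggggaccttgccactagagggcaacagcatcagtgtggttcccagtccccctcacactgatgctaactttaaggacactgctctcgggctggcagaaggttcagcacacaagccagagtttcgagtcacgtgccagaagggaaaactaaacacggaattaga

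The *S100a11* window held 2 matches to the AP-1 letters, starting 136 and 38 bases before the transcript start, and 3 to the GC box, and its GC content was 61.7%. The *S100a6* window had a GC content of 49.3% and a single match, to the CCAAT box on the reverse strand, 228 bases before the start. Among 32841 promoter windows of the same length, 7.8% held the AP-1 letters, 35.7% the GC box and 37.4% the CCAAT box, so that only the AP-1 letters were uncommon. Of the other members found in the promoter table, *S100a16* held TGANTCA at the second of its starts, and *S100a1* and *S100a13* held none of the letters in these windows. No binding was measured, and the matches are descriptive.

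*S100a10* (ENSMUSG00000041959, plus strand of chr3:93555080-93564643), the annexin A2 partner p11, had a higher mean in AAV-TuD livers but did not pass the test. The 5 AAV-NC livers stood at 33.4, 46.5, 18.5, 37.2 and 15.4 CPM, and the AAV-TuD livers ran from 36.1 to 55.0 CPM with a median of 48.6. Livers 6 and 8 were the low controls, and 5 of 6 AAV-TuD livers exceeded every control. Mean levels were 30.2 ± 13.04 CPM (SD, n = 5) and 48.2 ± 6.70 CPM (SD, n = 6), with a log2 difference of 0.68, a standard error of 0.22 and an interval of 0.21 to 1.15 (edgeR, adjusted p = 0.0585). The coefficient of variation among controls was 43.2%, beside a median of 12.4% over the 8372 genes that averaged 50 or more reads, and it was 13.9% among AAV-TuD livers. The call depended on the method and on single livers. *S100a10* passed the threshold with DESeq2 (adjusted p = 0.029), with limma-voom, with library size alone, without AAV-NC liver 2 (adjusted p = 0.0171) and without AAV-TuD liver 3 (adjusted p = 0.0385), and in none of the other 14 alternatives.

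*S100a1* (ENSMUSG00000044080, minus strand of chr3:90511034-90514392), best known as a regulator of calcium handling and metabolism, was the most abundant member in both groups. Its level was 126, 109, 109, 106 and 131 CPM in the AAV-NC livers and 95.8 to 115.5 CPM, with a median of 105.7, in the AAV-TuD livers. The ranges overlapped. The difference of −0.14 on the log2 scale (standard error 0.077, interval −0.30 to 0.027) did not pass the test (edgeR, adjusted p = 0.282), and with library size alone it was 0.09.

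*S100a13* (ENSMUSG00000042312, plus strand of chr3:90514435-90524581), which takes part in the release of FGF1 and interleukin 1 alpha, stood at 24.2, 20.1, 23.7, 14.5 and 18.5 CPM in AAV-NC livers. AAV-TuD livers ran from 18.0 to 28.3 CPM with a median of 22.03, and 2 of 6 exceeded every control. The log2 difference was 0.17 with an interval of −0.13 to 0.48 (edgeR, adjusted p = 0.477). *S100a16* (ENSMUSG00000074457, plus strand of chr3:90537254-90543151) is a broadly expressed member. Its AAV-NC levels of 12.4, 12.97, 11.3, 10.9 and 12.0 CPM lay within the AAV-TuD range of 8.92 to 13.2 CPM, whose median was 12.3. Its log2 difference was −0.06 with an interval of −0.32 to 0.20 (edgeR, adjusted p = 0.806), and its sign changed in 3 alternatives.

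*S100a9* (ENSMUSG00000056071, minus strand of chr3:90692632-90695721), the calprotectin subunit of myeloid cells, was near the limit of measurement with a mean of 13.4 reads per liver. The AAV-NC livers held 1.19, 0.63, 0.77, 0.38 and 2.53 CPM, from 3 to 26 reads, and the AAV-TuD livers 0.66 to 2.19 CPM with a median of 1.35. The highest value of all belonged to AAV-NC liver 8. *S100a9* had more than 10 reads in 1 AAV-NC and 4 AAV-TuD livers, exactly the number of livers that the filter requires. A log2 difference of 0.32 with an interval of −0.57 to 1.22 (edgeR, adjusted p = 0.684) leaves a change of either sign within these limits unresolved at this depth.

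In AAV-NC livers the order of mean levels was *S100a1*, *S100a10*, *S100a13*, *S100a16*, *S100a11*, *S100a6* and *S100a9*. Neighbours in this order overlapped between livers for *S100a10* with *S100a13* and for *S100a6* with *S100a9*. In AAV-TuD livers *S100a11* stood before *S100a16* in the order of means, at 18.4 against 11.4 CPM, and its range overlapped those of *S100a13* and *S100a16*. Summed CPM of the 7 genes was 187.4 ± 14.2 (SD, n = 5) in AAV-NC and 212.0 ± 17.6 (SD, n = 6) in AAV-TuD livers, and 5 of 6 AAV-TuD livers exceeded every control.

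**Figure D2:**
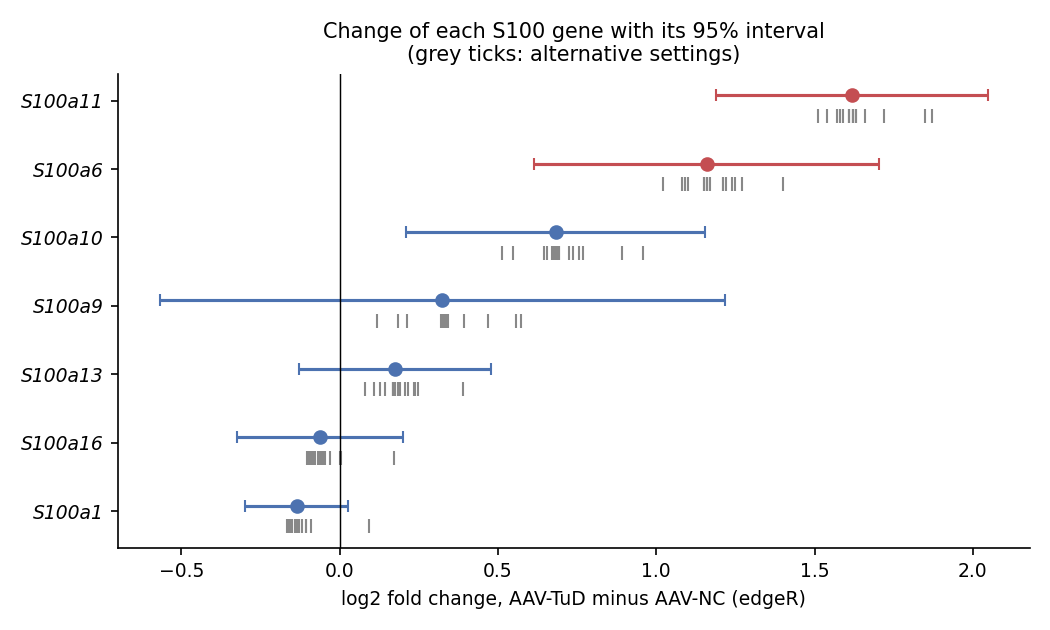
Log2 fold change of AAV-TuD against AAV-NC for the 7 measured S100 genes (horizontal axis, log2 units) with the edgeR 95% confidence interval as whiskers, in red for genes that passed the test and blue for the others, and grey ticks for the values under the alternative analyses. The intervals of *S100a11* (1.19 to 2.05) and *S100a6* (0.61 to 1.70) lie farthest from 0, and that of *S100a10* (0.21 to 1.15) excludes 0 without passing adjustment over all genes.

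Ratios within a liver do not depend on how libraries are scaled. For every 100 reads of *S100a1*, AAV-NC livers had 3.31 to 8.91 reads of *S100a11* and AAV-TuD livers 11.3 to 21.7. For *S100a6* the ratio was 0.942 to 2.08 in AAV-NC and 2.22 to 5.42 in AAV-TuD livers. Both ratios were without overlap. That of *S100a10* overlapped, at 11.8 to 42.7 and 36.2 to 50.2. *S100a1* supplied 54.1 to 70.3% of the reads of the 7 genes in AAV-NC livers and 46.8 to 54.6% in AAV-TuD livers, while *S100a11* supplied 2.06 to 4.83% and 5.75 to 10.2%. The shares of *S100a1* overlapped narrowly and those of *S100a11* did not.

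**Figure D3:**
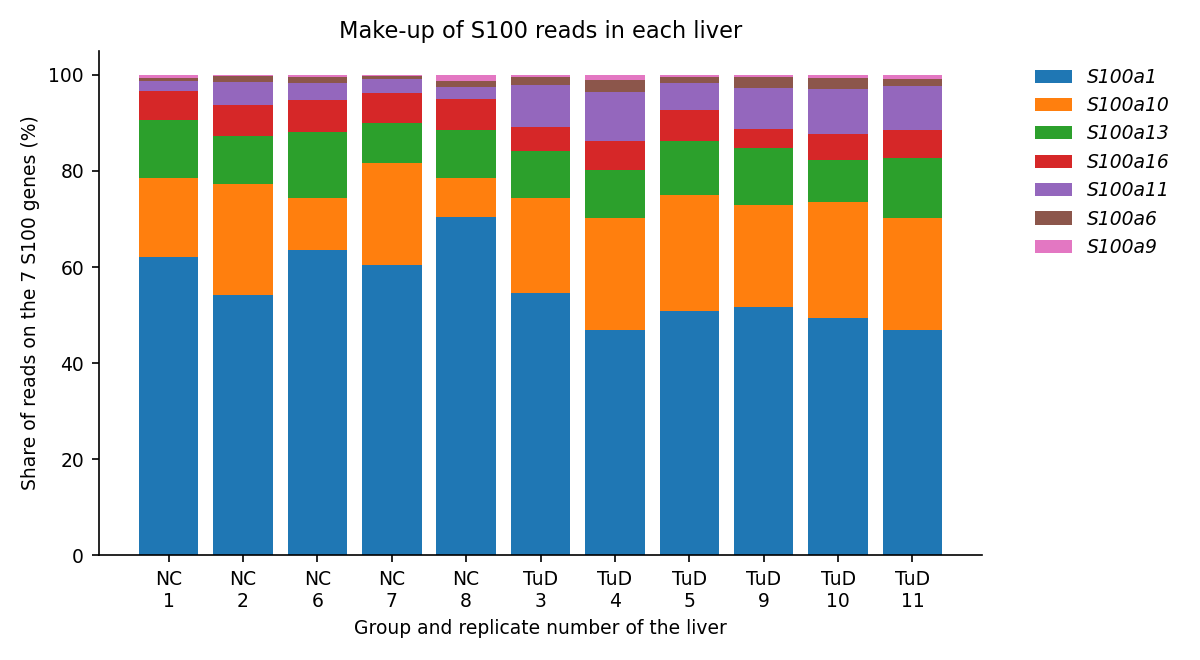
Share of the summed reads of the 7 S100 genes (vertical axis, percent) taken by each gene, with 1 stacked bar per liver, 5 AAV-NC on the left and 6 AAV-TuD on the right. The share of *S100a1* is 54.1 to 70.3% in AAV-NC livers and 46.8 to 54.6% in AAV-TuD livers, and that of *S100a11* is 2.06 to 4.83% and 5.75 to 10.2%.

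Of 21 genes listed as binding partners of S100 proteins, 19 were tested, of which 4 rose, 2 fell and 13 did not pass the test. Their median log2 fold change was 0.09, and of all tested genes 7.24% rose and 4.33% fell. *Anxa2*, the annexin that pairs with *S100a10*, rose from 6.24 ± 1.80 to 14.2 ± 4.32 CPM (log2 1.18, edgeR adjusted p = 0.00384), and *Anxa5*, another membrane-binding annexin, rose from 24.2 ± 2.85 to 50.7 ± 6.66 CPM (log2 1.07, adjusted p = 3.57e-05). The actin filament protein *Tpm1* rose by 0.70 on the log2 scale (edgeR, adjusted p = 0.00103) and *Ahnak*, a scaffold bound by annexin A2 and p11, by 0.45 (adjusted p = 0.0134). *Fgf1*, the growth factor released with *S100a13*, fell from 73.6 ± 12.5 to 50.4 ± 9.05 CPM (log2 −0.55, edgeR adjusted p = 0.014, and 0.191 with library size alone). *Cacybp*, the calcyclin-binding protein, was named after its values were seen and fell from 55.8 ± 7.16 to 43.2 ± 4.74 CPM (log2 −0.37, edgeR adjusted p = 0.0212), a call lost without AAV-NC liver 7 or 8 and with library size alone (adjusted p = 0.055, 0.0544 and 0.638). *Anxa1*, the partner of *S100a11* and likewise named afterwards, was at 0.57 ± 0.61 and 1.12 ± 0.35 CPM (log2 1.01, edgeR adjusted p = 0.179). The abundant partners *Ctsb* and *Anxa6* had log2 differences of 0.03 and 0.02 that did not pass the test. All group values here are means ± SD over 5 AAV-NC and 6 AAV-TuD livers.

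Of 11 receptors and signalling partners of extracellular S100 proteins, 8 were tested, of which 3 rose, none fell and 5 did not pass, with a median log2 fold change of 0.23. Among all tested genes 7.24% rose and 4.33% fell. *Ager*, which encodes RAGE, *Tlr4* and *Cd14* had no entry in the table. *Cd36*, a scavenger receptor and fatty acid transporter, went from 8.62 ± 2.49 CPM to 26.1 ± 6.67 CPM without overlap (log2 1.60, edgeR adjusted p = 3.37e-04). *Bsg*, or basigin, went from 58.6 ± 4.89 to 75.02 ± 9.52 CPM (log2 0.36, edgeR adjusted p = 0.0212) and lost the call without AAV-NC liver 6 (adjusted p = 0.0594). *Alcam*, an adhesion molecule of the immunoglobulin family, went from 63.4 ± 10.1 to 81.9 ± 10.5 CPM (log2 0.37, edgeR adjusted p = 0.0457) and passed in only 9 of 19 alternatives, with an adjusted p of up to 0.103 when 1 liver was left out (livers 1, 6, 7 and 8 of AAV-NC and 3, 4, 9, 10 and 11 of AAV-TuD). Without AAV-NC liver 6, *Cd36* was the only member of this list to pass.

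Of 40 genes listed as other EF-hand calcium sensors, 35 were tested, of which 6 rose, 1 fell and 28 did not pass. Their median log2 fold change was 0.19, and of all tested genes 7.24% rose and 4.33% fell. The list includes *Mcu*, the channel of the mitochondrial calcium uniporter, which has no EF-hand and was not called. *Sparc*, a secreted matrix protein, rose from 46.8 ± 4.55 to 87.5 ± 15.5 CPM (log2 0.90, edgeR adjusted p = 2.52e-04). *Myl12b*, a myosin light chain, *Micu2*, a regulator of the mitochondrial calcium uniporter, and *Lcp1*, the actin bundler of leukocytes, rose by 0.78, 0.59 and 0.39 on the log2 scale, and in all 3 genes each AAV-TuD liver lay above each AAV-NC liver. *Pef1* rose by 0.41 (edgeR, adjusted p = 0.0229), a call lost without AAV-NC liver 6 or 8 or AAV-TuD liver 10 (adjusted p = 0.0621, 0.0505 and 0.0505). The only gene that fell, *Chp1*, was named after its values were seen, at a log2 difference of −0.30 (edgeR, adjusted p = 0.0474). It passed in 9 of 19 alternatives and lost the call without AAV-NC liver 1, 2, 6 or 7 or AAV-TuD liver 3, 4, 10 or 11 (adjusted p of up to 0.119).

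Most tested markers of cholangiocytes, of stellate cells and fibroblasts, and of monocytes and macrophages moved with the groups. The part of any cell type in the S100 values was not tested. Beside the counts of each marker list, 7.24% of all tested genes rose and 4.33% fell. Of 15 cholangiocyte markers, 10 were tested and 8 rose, with a median log2 fold change of 1.56. Their summed level was 80.9 to 139.1 CPM in AAV-NC livers and 144.2 to 210.7 CPM in AAV-TuD livers, without overlap. *Sorbs2*, which was not called (edgeR, adjusted p = 0.15), gave the most to this sum, with means of 68.8 and 83.9 CPM. *Spp1* rose from 5.08 ± 1.93 to 23.1 ± 5.95 CPM (log2 2.20, edgeR adjusted p = 1.18e-04), and of the 4 defining markers only *Krt7* had no entry. The defining markers *Epcam* and *Krt19*, the latter named after its values were seen, were low but rose as well, from 0.66 ± 0.32 to 2.60 ± 1.0 CPM (log2 2.0, edgeR adjusted p = 0.00348) and from 0.80 ± 0.40 to 2.15 ± 0.79 CPM (log2 1.46, adjusted p = 0.0182). Of 15 stellate cell and fibroblast markers, 12 were tested and 10 rose (median log2 fold change 1.06). Their sum was 215.7 to 279.7 CPM and 379.2 to 522.4 CPM, again without overlap. *Dcn*, which rose, gave the most to it, with means of 150.1 and 259.0 CPM. The defining marker *Thy1* had no entry, and the defining marker *Des*, named after its values were seen, was not called (edgeR, adjusted p = 0.137). AAV-TuD liver 5 was the lowest of its group for *S100a11*, for *S100a6* and for both of these sums. Its monocyte and macrophage sum, however, was 346.1 CPM, above the group median of 322.8 CPM. AAV-TuD liver 3 was near the top for the cholangiocyte sum, at 210.6 CPM beside the highest value of 210.7 CPM. Its *S100a11* and *S100a6* levels of 15.9 and 3.38 CPM lay under the group medians of 19.9 and 4.12 CPM.

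**Figure D4:**
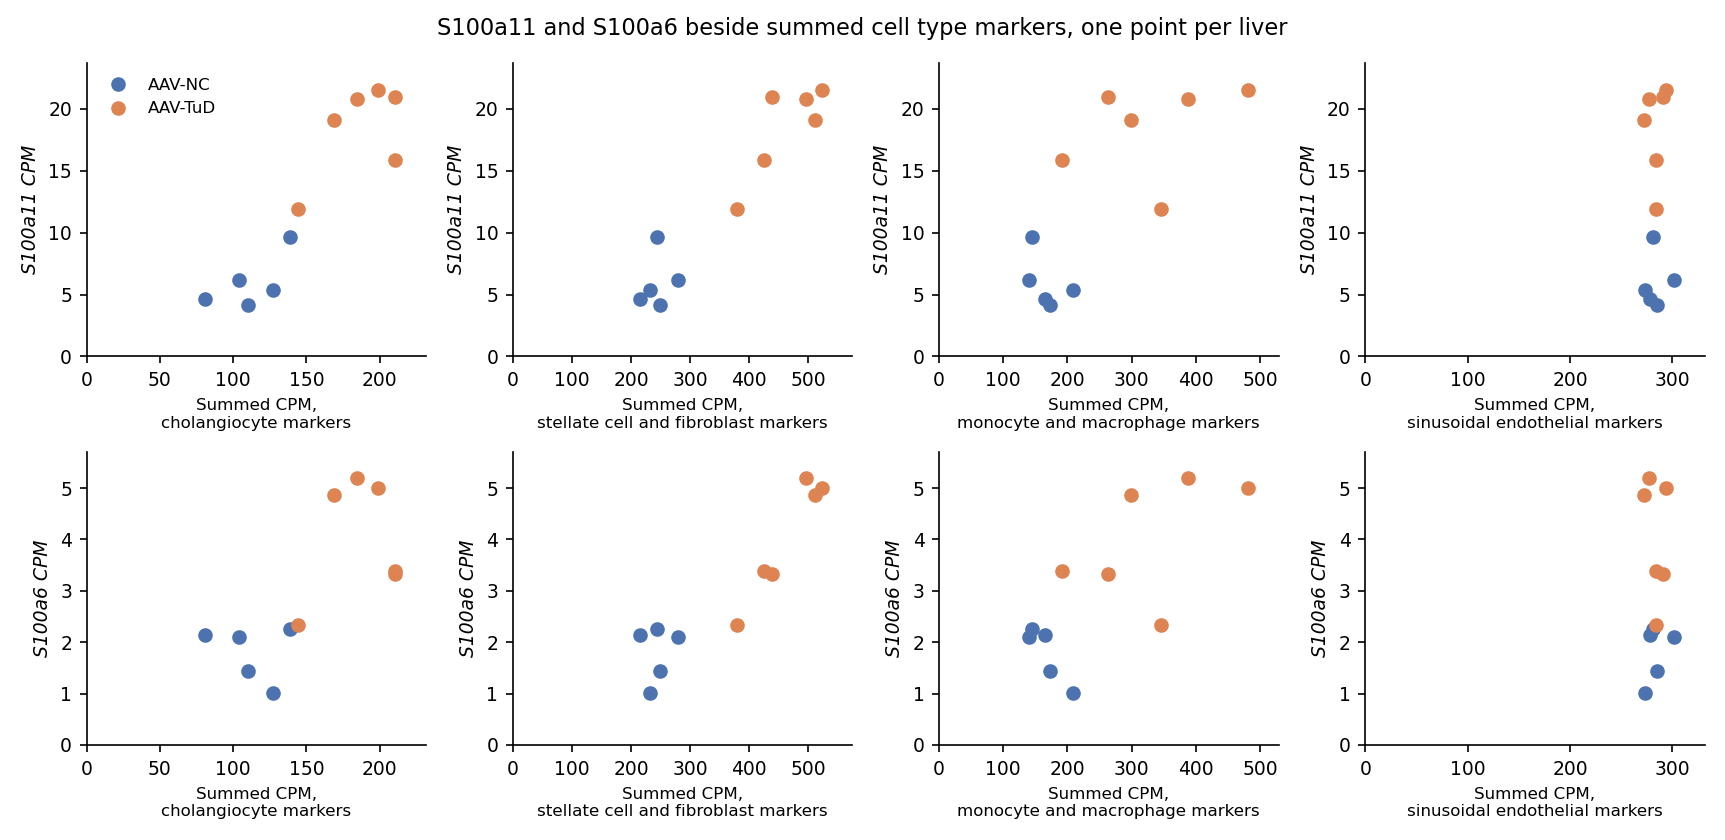
Level of *S100a11* (upper panels) and *S100a6* (lower panels) in each liver (vertical axis, CPM) against the summed level of the tested markers of a cell type (horizontal axis, CPM), in 1 column of panels per cell type with linear axes from 0 and 1 point per liver. The groups separate along both axes for the cholangiocyte sum (80.9 to 139.1 and 144.2 to 210.7 CPM) and for the stellate cell and fibroblast sum, while the sinusoidal endothelial sums cover the same range in both groups (272.8 to 301.5 and 272.5 to 294.1 CPM).

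Of 18 monocyte and macrophage markers, 16 were tested, of which 14 rose and none fell, with a median log2 fold change of 0.97. The shares over all tested genes were 7.24% higher and 4.33% lower. Their sum was 139.6 to 209.3 CPM in AAV-NC and 190.8 to 480.8 CPM in AAV-TuD livers, and 5 of 6 AAV-TuD livers exceeded every control. *Ccr2*, the receptor of recruited monocytes, rose from 0.78 ± 0.28 to 2.62 ± 0.76 CPM (log2 1.74, edgeR adjusted p = 0.00207), and the defining marker *Ly6c2* had no entry. Not called were the defining marker *Adgre1* (log2 0.66, edgeR adjusted p = 0.122) and *Timd4* (log2 0.30, adjusted p = 0.433). Both were named after their values were seen. Of 18 neutrophil markers only *Il1b* was tested, at 1.33 ± 0.35 and 1.94 ± 0.65 CPM (edgeR, adjusted p = 0.235), and none of the 5 defining markers *Ly6g*, *Retnlg*, *Ngp*, *Csf3r* and *Cxcr2* had an entry. All 11 sinusoidal endothelial markers were tested and none passed in either direction. In the edgeR test, *Ptprc* was the only one of 14 lymphocyte markers tested and rose (log2 0.70, adjusted p = 0.0296), and of 7 mesothelial markers 2 were tested and *Krt18*, a keratin that hepatocytes and bile duct cells express too, rose (log2 0.50, adjusted p = 0.0424). None of the 3 defining lymphocyte markers (*Cd3e*, *Nkg7*, *Cd79a*) or the 3 defining mesothelial markers (*Upk3b*, *Msln*, *Lrrn4*) had an entry, and *Ptprc* is shared by all leukocytes. *Ptprc* held in 12 of 19 alternatives and *Krt18* in 11. *Ptprc* lost the call without AAV-NC liver 1, 2, 6 or 7 or AAV-TuD liver 4, 9 or 10 (adjusted p of up to 0.0727), and *Krt18* without AAV-NC liver 1, 6, 7 or 8 or AAV-TuD liver 4, 9, 10 or 11 (up to 0.104). Of 9 erythroid and platelet markers 7 were tested and only *Pf4* rose (log2 1.03, edgeR adjusted p = 0.0342), in 10 of 14 alternatives that tested it, but not with limma-voom or without AAV-NC liver 1, 6 or 8 (adjusted p of up to 0.0827). The globin genes *Hba-a1* and *Hba-a2*, the most abundant of this list, had log2 differences of 0.67 each (edgeR, adjusted p = 0.0692 and 0.0718) and passed in 3 of 19 alternatives. The count of the list that rose was 5 with library size alone, 4 without AAV-TuD liver 3 and 3 without AAV-TuD liver 11. Its summed level was 1916 to 2757 CPM in AAV-NC and 2521 to 7006 CPM in AAV-TuD livers, with the highest value in liver 5 and the next at 4391 CPM. The liver identity of the libraries was plain from hepatocyte markers, of which 11 of 12 were tested. *Hnf4a* fell by 0.38 and *Asgr1* by 0.28 on the log2 scale (edgeR, adjusted p = 0.015 and 0.0225), calls that were lost with library size alone, that of *Asgr1* also without AAV-NC liver 1 or AAV-TuD liver 4 (adjusted p = 0.0622 and 0.0576), and no hepatocyte marker passed as higher in this test. *Alb*, the albumin gene and the most abundant of them, was at 21096 ± 2304 and 28044 ± 2727 CPM without overlap (log2 0.41, edgeR adjusted p = 0.0805) and passed as higher with DESeq2 (adjusted p = 3.31e-04) and limma-voom (0.00652). The summed hepatocyte markers, to which *Alb* contributed most, were 36510 to 42580 CPM in AAV-NC and 44960 to 51410 CPM in AAV-TuD livers. The sum was higher in all 6 AAV-TuD livers, but the median log2 fold change of the 11 tested markers was −0.14 and 9 were not called.

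All 7 genes lie on chromosome 3 in GRCm38, in 2 clusters. The first runs through *S100a1*, *S100a13*, *S100a16*, *S100a6* and *S100a9*, and the second, 2824766 bp farther on, holds *S100a11* and *S100a10*, which are separated by 28792 bp. Each cluster had 1 called gene, and its other measured members did not pass. In the second cluster the other member was *S100a10*, which passed in 5 of 19 alternatives. *S100a1* and *S100a13* are transcribed away from each other with 42 bp between the annotated genes, and their log2 differences were −0.14 and 0.17. No tested member overlaps another annotated gene. Within 250 kb of the first cluster, 7 other genes were tested and none was called, with a median log2 fold change of 0.10. No other gene within 250 kb of the second cluster was tested. Between the clusters only 2 of 102 annotated genes were tested, and neither was called.

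The genes whose levels followed each member most closely were sought among genes that averaged 50 or more reads, by Pearson correlation of log2 CPM after subtraction of the group means over the 11 livers. These values are descriptive, since all points share their libraries and 8371 or 8372 genes were compared. *S100a6* was followed most closely by *Anxa2* (r = 0.92) and by the collagen gene *Col6a3* (r = 0.92), which both rose in AAV-TuD livers, from 6.24 to 14.2 CPM and from 3.36 to 11.4 CPM. *S100a11* was followed by *Pi4ka* and *Ano6* (r = 0.92 and 0.90), *S100a10* by *Zfp865* and *Lect2* (0.92 and 0.91), *S100a1* by *Phlda1* and *Etl4* (both 0.89), *S100a13* by *Zw10* and *Mcts1* (0.91 and 0.89), *S100a16* by *Cinp* and *Ushbp1* (0.92 and 0.86), and *S100a9* by *Gas2* and *Qprt* (both 0.91). None of these followers of the other members was called between the groups, at similar values of r. Within the family the highest correlation was that of *S100a6* with *S100a11* (r = 0.63), and the lowest that of *S100a9* with *S100a10* (r = −0.38).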

How the data were processed

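Liver RNA of 5 AAV-NC and 6 AAV-TuD mice had been sequenced by QuantSeq 3′ mRNA libraries. The authors used BBDuk for trimming, STAR 2.5.3a for alignment to GRCm38 and Rsubread for counting, and the submitters' processing notes also name DESeq2 1.38.3. The deposited values are raw counts of reads per gene. Annotation, strand setting and the treatment of reads matching several genes are not given in the sources used here. Groups came from the sample labels.

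A gene entered the test where 5 or more livers each had over 10 of its reads. The test was that of edgeR 4.0.16 in R 4.3.3 (quasi-likelihood, TMM, Benjamini-Hochberg over 13334 genes, adjusted p under 0.05), after the script had been tested on simulated data. CPM used TMM-scaled totals, and log2 CPM a prior count of 2. At these depths 1 CPM is about 10 reads. The members and lists were chosen with earlier results of these data known, and no list was tested as a set. Named were all members, of each list the called genes with the smallest p (up to 5) and the 2 most abundant, and the 2 genes most like each member. Not every gene that this rule selects is reported here. The text says so where a name outside this rule was picked with its values in view.

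Alternatives were DESeq2 1.42.0, the same size factors within edgeR, scaling by upper quartile or by library size alone, omission of the filter, filterByExpr, limma-voom with quality weights (limma 3.58.1), exclusion of the 50 most abundant genes, and omission of each liver singly. Sequences came from RefSeq (GRCm38.p6), where 6 of 7 measured members had a promoter, and 3′ UTRs from GENCODE M21 on GRCm38.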

Additional observations from a re-analysis of the deposited data

Results flagged for a closer look

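Of 42 sets of values examined for a liver far from the others, 1 stood out, about 1 in 20 being flagged by chance. The summed S100 level entered these sets more than once, so they were not all distinct. The summed hepatocyte markers were highest in AAV-TuD liver 9, at 51410 CPM against 45910 CPM in the nearest AAV-TuD liver, a gap of 0.853 of the whole range of the group. No member of the S100 family had such a liver in either group.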

How the results depend on the processing

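*S100a11* and *S100a6* kept direction and call in each of 19 alternatives, at log2 1.51 to 1.87 and 1.02 to 1.40, and 2 or 3 members were called when each liver was left out. *S100a10* ran from 0.51 to 0.89 without single livers and passed at 0.67 (DESeq2), 0.96 (library size alone), 0.74 (limma-voom), 0.89 (without AAV-NC liver 2) and 0.76 (without AAV-TuD liver 3). With library size alone the median of all genes moved to 0.23, 95.1% of calls were higher against 62.6% with TMM, and only 71 genes were lower. Signs turned for *S100a1* (0.0912), *S100a16* (0.17) and *Kdr* (0.19) with library size alone, for *S100a16* without AAV-TuD liver 3 (0.0012) or 9 (0.0051, range without single livers −0.102 to 0.0051), for *Kdr* without AAV-NC liver 8 (range −0.0935 to 0.0034), for *Anxa6* without AAV-TuD liver 9 (−0.0287) or 10 (−0.014, range −0.0287 to 0.0542) and for *Ctsb* without AAV-TuD liver 10 (range −0.0043 to 0.0973). The cause was not tested. Leaving out each liver gave 1012 to 1829 called genes, the fewest without AAV-TuD liver 4, with 675 to 1115 higher and 337 to 714 lower. *S100a9* could not be tested without AAV-NC liver 8 or AAV-TuD liver 4, 9, 10 or 11, since it then failed the filter. List counts under these settings were added after seeing the data. No paired analysis was possible because the AAV-NC and AAV-TuD livers share no replicate number. Depth limits *S100a9* and *S100a6*.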
